A study of Mus musculus with 13 samples.

Results

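Midkine (Mdk, ENSMUSG00000027239) and pleiotrophin (Ptn, ENSMUSG00000029838) were followed in single-cell RNA sequencing of mouse embryos and hearts from E8.5 to P3. These are 2 of the 27998 genes listed, and they were chosen by their levels over stages and cell classes in these same libraries, so those levels are given below as a description with no test. In Tnnt2 barcodes, the cardiomyocyte class, Mdk was at 1627 CPM (UMIs per 1000000 UMIs of the class) at E8.5 and at 16.3 CPM, below its value in macrophage barcodes, at P3. In Col1a1 barcodes, the mesenchymal and fibroblast class, Mdk was at 1928 and 2031 CPM in the E12.5 hearts and still at 736.4 CPM at P3. Ptn there was at 1184 and 1384 CPM in the E12.5 hearts, 2110 and 2424 CPM in the E16.5 hearts and 1429 CPM at P3. Within classes, which the choice of genes did not use, Ptn was higher in atrial than in ventricular barcodes, and both genes were higher in Npr3 than in Fabp4 endothelial barcodes.

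Both genes encode small secreted growth factors that bind heparin, and together they form a family of their own. The proteins attach to the heparan and chondroitin sulfate chains of proteoglycans and act through cell surface receptors such as the phosphatase Ptprz1, the kinase Alk, the endocytic receptor Lrp1, syndecans and integrins. Midkine was first found as a gene induced by retinoic acid, and both factors are known from developing brain, from mesenchyme beside epithelia and from tissue repair.

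In the mouse genome (build GRCm38, also called mm10; GENCODE vM21) Mdk lies at chr2:91929805-91932297 and Ptn at chr6:36714929-36810220, both on the minus strand. The transcripts Mdk-201 and Ptn-201 have 5 exons each, 4 of them with coding sequence, and coding lengths of 420 and 504 bases. To show how alike the 2 messages are, 120 bases of each coding sequence follow, 5′ to 3′, with the bases that are identical in both in capitals. They are the best match among ungapped stretches in the same reading frame that lie within a single exon of each transcript. The stretch lies within exon 4 of each transcript, at chr2:91930860-91930979 for Mdk and chr6:36741320-36741439 for Ptn.
Mdk: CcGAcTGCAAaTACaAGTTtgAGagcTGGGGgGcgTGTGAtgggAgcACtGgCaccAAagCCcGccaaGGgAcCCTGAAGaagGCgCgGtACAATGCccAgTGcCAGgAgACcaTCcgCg
Ptn: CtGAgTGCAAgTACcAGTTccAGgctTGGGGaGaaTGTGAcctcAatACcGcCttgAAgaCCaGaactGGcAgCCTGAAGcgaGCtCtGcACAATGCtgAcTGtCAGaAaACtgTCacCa
Even here 71 of the 120 bases, or 59.2%, were identical. The longest run shared by the whole transcripts was 15 bases.

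All animals were wild-type C57Bl/6J mice with no treatment. Whole embryos after removal of head and limbs were taken at E8.5 and E10.5, and dissected hearts at P3 and at 3 embryonic stages, E12.5, E14.5 and E16.5. There were 2 libraries at each stage from E10.5 to E16.5. E8.5 (replicate 2, as replicate 1 was not analysed here) and P3 had 1 matrix each, so their values have no replicate error. The P3 matrix joins 2 wells, and there are 2 P3 sample records with no stated map to the wells, so P3 was treated as 1 sample. How many animals made up a library is not given, so the spread between libraries may be partly technical.

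The libraries held 67141166 to 259041468 UMIs in all, and 67411 barcodes passed 2000 UMIs and 1% mitochondrial UMIs, with medians of 11050 to 25970 UMIs. Of these, 42223 passed exactly 1 of 5 gates, namely 24040 for Tnnt2, 4727 for Cdh5, 4170 for Col1a1, 651 for Upk3b and 8635 for Sox2. Of the lists of the 5 classes, that of the class itself summed highest in every library with at least 20 barcodes for Tnnt2, Cdh5, Col1a1 and Sox2, but not for Upk3b. Over all libraries the 5 further cardiomyocyte markers summed to 3713 to 14626 CPM in Tnnt2 barcodes and to at most 436.1 CPM in the Col1a1 class. Cdh5 barcodes, the endothelial class, held 1192 to 2468 CPM of endothelial markers. Upk3b, a gene of epicardium and mesothelium, gated barcodes that held more of the Col1a1 class's markers than of their own at E8.5 (168.5 against 97.6 CPM) and at E12.5 (1018 and 993 against 743.6 and 769.5 CPM), so this class is called by its gate gene alone. The 17 and 15 Sox2 barcodes of E12.5 had 0 CPM of the neural genes Pax6 and Pax3 and 1536 and 1585 CPM of the Col1a1 class's markers, so they were left out of the levels.

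In Tnnt2 barcodes Mdk was lower at each later stage. It was at 1627 CPM at E8.5, 886.8 and 815.4 in the E10.5 embryos, 496.6 and 464.7 in the E12.5 hearts, 250.4 and 237.6 in the E14.5 hearts, 45.8 and 46.5 in the E16.5 hearts, and 16.3 at P3. No library of one stage overlapped with those of the next. The E16.5 mean was 10.4-fold below that of E12.5, a log2 difference of -3.38 ± 0.07 (SD, n = 2 at each stage). Ptn was low throughout this class, at 35.03 CPM at E8.5, 59.3 and 65.5 in the E10.5 embryos, 34.1 and 29.0 in the E12.5 hearts, 27.5 and 28.5 in the E14.5 hearts, 17.5 and 14.9 in the E16.5 hearts and 8.41 at P3. Its highest values were those of E10.5, while hearts of E12.5 and E14.5 lay within a few CPM of each other.

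Free RNA puts some UMIs of an abundant gene in every barcode, and macrophage barcodes (C1qb gate) served as the background in the hearts. Mdk in them was at 13.2 and 11.1 CPM in the E14.5 hearts, 15.5 and 0 in the E16.5 hearts and 18.8 at P3. In the E14.5 and E16.5 hearts the Tnnt2 level of Mdk was above that floor. At E16.5 the floor rested on 9 and 0 macrophage UMIs of Mdk. At E12.5 there were only 14 and 8 macrophage barcodes, so no floor is given there. In free RNA of the hearts, from barcodes of at most 100 UMIs, Mdk was at 567.2 and 643.7 CPM at E12.5. It was at 380 and 335.6 CPM at E14.5 and 150.8 and 118.8 CPM at E16.5. Each value was above that of Tnnt2 barcodes in the same library. How much free RNA the Tnnt2 barcodes held was not measured, so its part in the fall of Mdk is not known. At P3 the Tnnt2 level was below the macrophage value. Ptn in Tnnt2 barcodes at P3 (8.41 CPM) was also below the macrophage value of 11.96 CPM, so neither P3 level of the whole class is read as expression. Macrophage barcodes of P3 were shallower, with a median of 10858 UMIs against 15168 in Tnnt2 barcodes. An equal amount of free RNA would weigh more in the macrophage CPM, so this comparison is uncertain as well. The second of the P3 wells went the other way for Mdk, with 29.7 CPM in Tnnt2 and 24.3 CPM (22 UMIs) in macrophage barcodes. In the whole P3 matrix the atrial barcodes, 1168 of 7021 in the Tnnt2 class, held 46.8 CPM of Mdk and 19.7 CPM of Ptn. Both lay above the macrophage values of 18.8 and 11.96 CPM. In the embryos the free RNA itself was rich in Mdk, with 1864 to 1993 CPM in barcodes of at most 100 UMIs, and erythroid barcodes there held 380.5 to 445 CPM. Mdk in Tnnt2 barcodes of E8.5 and E10.5, at 815.4 to 1627 CPM, stood above that in each library. So did Ptn, at 35.03, 59.3 and 65.5 CPM beside erythroid values of 21.9, 15.4 and 36.9 CPM in the same libraries. The erythroid barcodes were deeper, with medians of 31292, 24691 and 22842 UMIs against 23381, 13979 and 14032 in Tnnt2 barcodes. An equal amount of free RNA would thus weigh more in the Tnnt2 CPM. Its part in these gaps was not tested, so the margins over background are uncertain.

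In Cdh5 barcodes Mdk was highest at E12.5. The levels were 986.4 CPM at E8.5, 777.3 and 793.1 in the E10.5 embryos, 1144 and 1040 in the E12.5 hearts, 391.9 and 325.9 in the E14.5 hearts, 234.1 and 217.1 in the E16.5 hearts, and 134.5 at P3. From E12.5 on each stage lay below the one before, by 4.84-fold from E12.5 to E16.5 (log2 difference -2.27 ± 0.12, SD, n = 2 at each stage). The class did not hold the same cells at both stages. Barcodes with Npr3, a gene of endocardium, numbered 554 and 680 at E12.5 and 155 and 132 at E16.5, while those with Fabp4, a gene of vascular endothelium where Mdk was much lower, went from 24 and 23 to 174 and 144. Within the Npr3 barcodes alone Mdk went from 1244 and 1128 to 499.6 and 435.3 CPM, a smaller fold than that of the whole class. Within the Fabp4 barcodes it went from 202.6 and 292 to 41.3 and 33.2 CPM, a larger fold. The part of make-up in the difference of the class was not tested. Ptn stayed between 18.5 and 73.7 CPM in this class. Its hearts overlapped from stage to stage, with 73.7 and 60.9 CPM in the E12.5 hearts, 63.8 and 37.2 in the E14.5 hearts, 61.2 and 52.8 in the E16.5 hearts and 61.2 at P3.

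Col1a1 barcodes held the highest levels of both genes in the hearts after E12.5, and there the 2 genes parted. Mdk was at 1371 CPM at E8.5 (21 barcodes), 1848 and 1996 in the E10.5 embryos, 2031 and 1928 in the E12.5 hearts, 1574 and 1629 in the E14.5 hearts, 1237 and 1231 in the E16.5 hearts and 736.4 at P3. Ptn was at 129.4 CPM at E8.5, 384.5 and 728.1 in the E10.5 embryos, 1384 and 1184 in the E12.5 hearts, 2195 and 1998 in the E14.5 hearts, 2424 and 2110 in the E16.5 hearts and 1429 at P3. Mdk at E16.5 was 1.6-fold below E12.5 (log2 -0.68 ± 0.05, SD, n = 2), and Ptn was 1.77-fold above it (0.82 ± 0.21, SD, n = 2). The make-up of this class shifted too. Barcodes on the Sox9 side, described further on, were 89 of 161 and 226 of 386 in the E12.5 hearts but 119 of 547 and 130 of 507 in the E16.5 hearts, and those on the Tcf21 side, where Ptn was higher, went from 6 and 15 to 78 and 72. Within the Sox9 side Ptn went from 1084 and 960.5 to 2022 and 1685 CPM and Mdk from 2081 and 1889 to 1196 and 1114 CPM, so both directions were also found there. Ptn on the Tcf21 side was at 2699 and 2031 CPM at E12.5 and 3224 and 2391 CPM at E16.5, which overlap. The E14.5 and E16.5 libraries overlapped for Ptn, and the E10.5 and E12.5 libraries overlapped for Mdk.

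**Figure D1:**
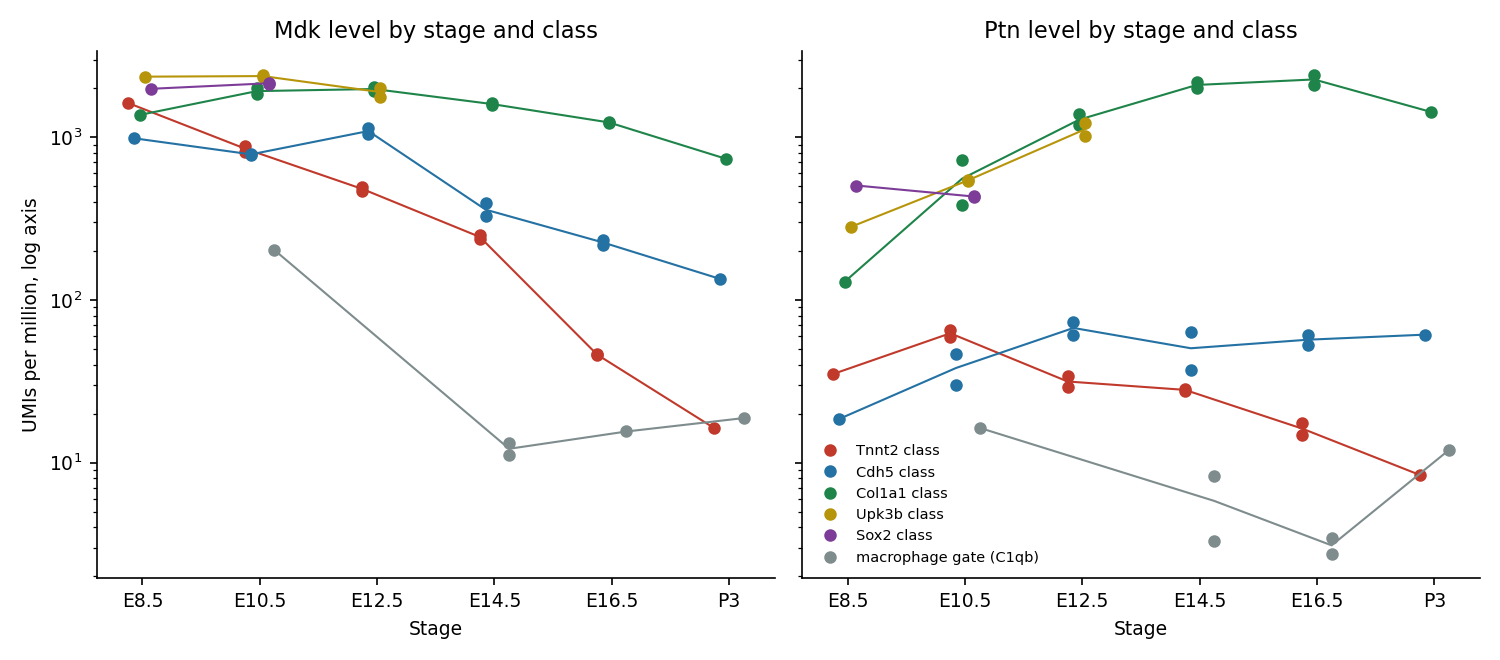
Mdk (left) and Ptn (right) in CPM on a log axis against stage, 1 point per library and class, with lines through the mean of each stage. Mdk of the Tnnt2 class runs from 1627 CPM at E8.5 to 16.3 CPM at P3, while Ptn of the Col1a1 class lies at 2110 and 2424 CPM at E16.5; the macrophage value of 0 for Mdk at E16.5 is not drawn.

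Upk3b barcodes had high Mdk at the 3 stages where at least 20 barcodes passed. Mdk was at 2358 CPM at E8.5, 2337 and 2418 in the E10.5 embryos and 2012 and 1780 in the E12.5 hearts. Ptn in the same barcodes was at 280.8, 537.6 and 549.2, and 1229 and 1013 CPM, so it was higher at each stage while Mdk at E12.5 was lower than at E10.5. From E14.5 on, most Upk3b barcodes also passed the Col1a1 gate. With those kept, a choice made after the data were seen, Mdk was at 1465 and 1158 CPM in the E14.5 hearts, 628.7 and 633.3 in the E16.5 hearts and 265.7 at P3, and Ptn at 1147 and 832.7, 388.1 and 312.4, and 89.4 CPM. In this wider set Ptn at E16.5 lay below its E12.5 values of 1385 and 1142 CPM, unlike in Col1a1 barcodes.

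In the Sox2 class, neural progenitors of the embryos, Mdk was at 1986 CPM at E8.5 and 2134 and 2160 in the E10.5 embryos. Ptn was at 505.2 CPM at E8.5 and 427.2 and 437.4 in the E10.5 embryos. Neural markers summed to 230.4 to 407.9 CPM in Sox2 barcodes of these libraries. The Sox2 class gave 32.9 to 34.3% of all Mdk UMIs and 45.5 to 50.8% of all Ptn UMIs of the embryos, beside 32.8 to 34.9% of all UMIs, so its share of Mdk was near its share of RNA.

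The order of the classes changed with stage. At E10.5 Mdk ran from Upk3b (2337 and 2418 CPM) through Sox2 (2134 and 2160), Col1a1 (1848 and 1996) and Tnnt2 (815.4 and 886.8) to Cdh5 (777.3 and 793.1), with no overlap between neighbours. At E12.5 Col1a1 and Upk3b overlapped, Cdh5 followed at 1040 and 1144 CPM and Tnnt2 at 464.7 and 496.6 CPM. In CPM the last 2 classes had thus changed places. Tnnt2 barcodes of E10.5 were shallower than Cdh5 barcodes, with medians of 13979 and 14032 UMIs against 19536 and 20117. An equal amount of free RNA would weigh more in their CPM. Its part in the E10.5 order of these 2 classes was not tested for either gene, so their change of places is uncertain. At E14.5 and E16.5 the order was Col1a1, Cdh5, Tnnt2, again with no overlap. For Ptn the Col1a1 class overlapped with Upk3b at E10.5 and E12.5 and with Sox2 at E10.5. Below them Tnnt2 lay above Cdh5 at E10.5 (59.3 and 65.5 against 30.1 and 46.3 CPM), and from E12.5 on Cdh5 lay above Tnnt2 in every library.

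The ratio of Mdk to Ptn was lower at the last stage than at the earliest one read in each of the 4 classes that reached the hearts. Because the counts come from the 3′ ends of transcripts, they do not depend on gene length, although capture may still differ between genes. The ratio in Tnnt2 barcodes was 46.4 at E8.5, 13.7 at E10.5, 15.3 at E12.5, 8.72 at E14.5, 2.87 at E16.5 and 1.93 at P3, the last at the level of free RNA for both genes. In Cdh5 barcodes it went from 16.3 at E12.5 to 3.97 at E16.5 and 2.2 at P3, while Ptn at E8.5 (18.5 CPM) was below the erythroid 21.9 CPM, so no ratio is read there. In Col1a1 barcodes it was 10.6 at E8.5, 1.55 at E12.5, 0.766 at E14.5, 0.547 at E16.5 and 0.515 at P3, so Ptn UMIs outnumbered Mdk UMIs from E14.5 on in this class. The Sox2 class went the other way within the embryos, from 3.93 at E8.5 to 4.97 at E10.5.

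**Figure D2:**
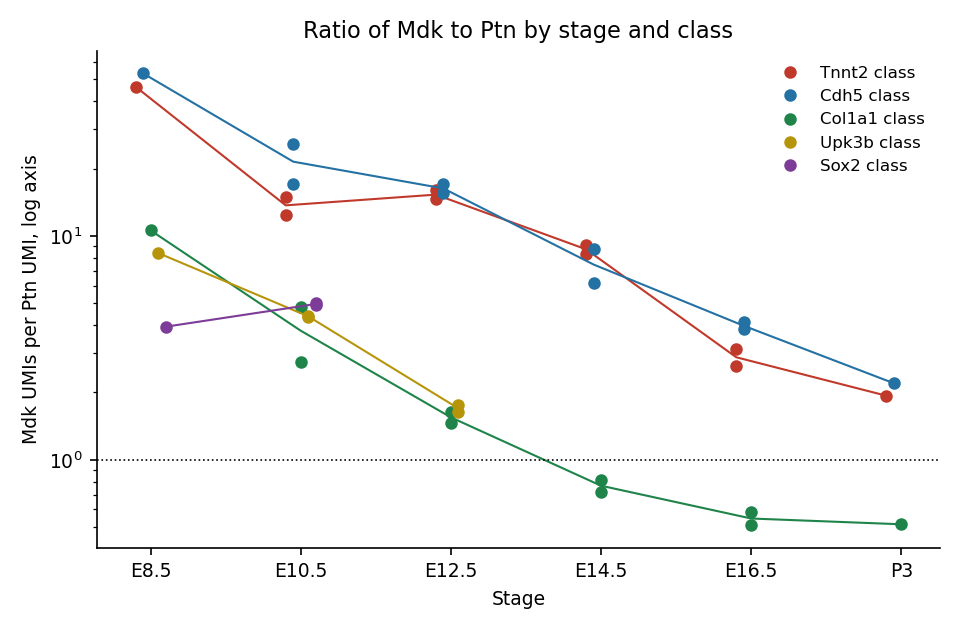
Ratio of Mdk to Ptn CPM on a log axis against stage for each class, with 1 point per library. The E8.5 point of the Cdh5 class and the P3 point of the Tnnt2 class rest on levels at or below background. Of the 5 classes only Col1a1 crosses 1, between the E12.5 mean of 1.55 and the E14.5 mean of 0.766.

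The share of barcodes with a UMI moved with the level. To compare depths fairly, each barcode was thinned to 2000 UMIs. Tnnt2 barcodes with an Mdk UMI then made up 93.9% at E8.5, 73.9 and 70.7% in the E10.5 embryos, 54.1 and 53.4% in the E12.5 hearts, 34 and 32.6% in the E14.5 hearts, 7.53 and 8.49% in the E16.5 hearts and 3.79% at P3 (exact binomial 95% interval 3.35 to 4.26%). Unthinned, at medians of 13588 to 25198 UMIs in the embryonic Tnnt2 libraries, the range was 100% at E8.5 to 30.1% in E16.5 replicate 2, and 17.3% at P3. Erythroid barcodes of the embryos, the background there, gave 55.3% at E8.5 and 49.3 and 53.2% at E10.5 after thinning. The early Tnnt2 shares thus stood over a high background, and no background share is given for E12.5. Macrophage barcodes of the E14.5 to P3 hearts gave 0 to 4.08% thinned and 0 to 17.1% unthinned at medians of 8036 to 11207 UMIs. The P3 share in Tnnt2 barcodes lay within the macrophage interval of 0.393 to 5.45%. At E16.5 the share lay within that of replicate 1 (0.498 to 13.98%, 49 macrophage barcodes) and just above that of replicate 2 (0 to 8.22%, 43 barcodes). These intervals cover counting error only.

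Most Col1a1 barcodes of the hearts had Ptn. After thinning, 78.3 and 72.5% of them had a Ptn UMI at E12.5, 86.4 and 86% in the E14.5 hearts, 91.6 and 92.3% in the E16.5 hearts and 76.9% at P3, against 0 to 5.13% of macrophage barcodes from E14.5 on. At E16.5, 78.1 and 79.3% of Col1a1 barcodes had UMIs of both genes, 13.5 and 13% of Ptn alone, and 7.13 and 6.71% of Mdk alone. The product of the single shares was 78 and 79.4%, so the 2 genes were found together as often as their separate shares give. In Cdh5 barcodes of E16.5, 4.87 and 4.22% had both genes beside products of 2.82 and 2.67%.

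The share of the message held by a class depends on its level and on its share of the barcodes, and both moved. At E12.5 Tnnt2 barcodes were 43.8 and 45.2% of barcodes and held 26.2 and 26.8% of all Mdk UMIs, and Col1a1 barcodes were 4.04 and 7.38% and held 5.73 and 9.8%. At E14.5 the Tnnt2 class held more of Mdk, 38.9 and 35.4%, although its level was lower, with 60.6 and 59.7% of barcodes, and the Col1a1 class held 25 and 26.3% with 9.35 and 9.83%. At E16.5 Tnnt2 barcodes held 16.9 and 18.5% of Mdk although they were 66.3 and 68.6% of barcodes, and Col1a1 barcodes held 54.1 and 56.8% of Mdk and 76.2 and 79.9% of Ptn with 9.78 and 9.9% of barcodes. At P3 the Col1a1 class held 69.6% of Mdk and 84.9% of Ptn UMIs. In the embryos 61.1 to 61.9% of Mdk UMIs and 47.5 to 50.2% of Ptn UMIs lay in barcodes that passed no gate, which were 62.6 to 63.2% of barcodes. At E12.5 barcodes of no gate held more of both genes than any class, 33.66 and 30.96% of Mdk and 44.57 and 41.29% of Ptn. They held 19.03 and 23.31% of Mdk and 24.97 and 30.73% of Ptn at E14.5. At E16.5 these shares were 13.09 and 10.45% of Mdk and 11.59 and 10.08% of Ptn.

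The 2 wells of P3 were not alike. Mdk in Tnnt2 barcodes was at 11 CPM in the first well and 29.7 in the second, and Ptn at 5.69 and 15.4 CPM. Median UMIs of these Tnnt2 barcodes were 18968 and 10340, and macrophage Mdk was 12.9 and 24.3 CPM. In Col1a1 barcodes Mdk was at 628.9 and 804.8 CPM and Ptn at 1566 and 1342 CPM. Whether these wells are the 2 P3 sample records is not stated. From visual inspection, the paper reports marked batch differences at P3 only. The part of batch, depth and free RNA in this gap was not tested.

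Over 38 sums of class and library, 4934 genes with a mean of at least 20 CPM were ranked by Pearson's r of log2(CPM + 1) with each member. The genes most like Mdk were Trmt112 (r = 0.963), an activating subunit of methyltransferases, Tmem138 (0.93), a membrane protein of cilia, Cnpy2 (0.916), Ostc (0.913), a subunit of the oligosaccharyltransferase, and Cfdp1 (0.912). Those most like Ptn were the zinc transporter Slc39a6 (r = 0.938), Clip3 (0.925), the adhesion molecule Clmp (0.913), the glypican Gpc6 (0.902) and Trip6 (0.901). Mdk and Ptn had r = 0.71 with each other, which put Ptn at rank 580 for Mdk. These sums share libraries and stages, so the values are a description.

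The first contrast within a class asked whether atrial and ventricular cardiomyocytes differ. Tnnt2 barcodes with more Sln than Myl2 UMIs formed the atrial side and those with more Myl2 the ventricular side (49 to 246 against 1684 to 3425 barcodes in the 6 hearts from E12.5 to E16.5). Ptn on the atrial side was at 49.5 and 75.6 CPM in the E12.5 hearts, 53 and 86.1 in the E14.5 hearts and 37.2 and 30.9 in the E16.5 hearts, and on the ventricular side at 33.6 and 27.6, 25.9 and 25.3, and 16 and 13.6 CPM. The atrial side was higher in 6 of 6 libraries, by a log2 fold of 1.06 (SE 0.12, adjusted p = 1.7e-05, edgeR quasi-likelihood test), in a contrast where 38.1% of all genes tested passed. That difference was 0.06 larger at E16.5 than at E12.5 on the log2 scale (SE 0.22). This change is a description with no test, since the course of the class over these stages was used to choose the genes. The P3 library, outside the fit, had 19.7 CPM on the atrial side and 6.22 on the ventricular side, the latter below the macrophage 11.96 CPM.

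Mdk showed another course. Its atrial side was at 383.4 and 387.4 CPM in the E12.5 hearts, 270.9 and 334.5 in the E14.5 hearts and 179.8 and 166.9 in the E16.5 hearts, while its ventricular side was at 499.9 and 466.4, 248.2 and 233, and 36.3 and 36.8 CPM. The atrial to ventricular ratio was thus 0.767 and 0.831 in the E12.5 hearts, 1.09 and 1.44 in the E14.5 hearts, and 4.96 and 4.54 in the E16.5 hearts. At P3 the atrial side was at 46.8 CPM, above the macrophage 18.8 CPM, and the ventricular side at 10.3 CPM, below it. The mean difference did not pass (log2 fold 0.58, SE 0.32, adjusted p = 0.18, edgeR), and it was 0.27 and 0.29 without the first or the second E16.5 library and 0.06 without the library as a block. The difference changed by 2.50 on the log2 scale from E12.5 to E16.5 (SE 0.11). The ventricular side was nearly the whole Tnnt2 class at E12.5, 1684 of 1744 and 2272 of 2362 barcodes, and the fall of Mdk in that class is among the levels that chose the gene, so this change is a description with no test. Of all genes 10.7% passed for such a change.

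These values were checked against other cell types. The Col1a1 class's markers summed to 26.7 and 16.4 CPM on the atrial side of E16.5 and to 33.1 and 25.2 CPM on the ventricular side, and the Cdh5 class's markers to 30.2 and 30.9 against 11.5 and 10.8 CPM. When every barcode with a UMI of the Cdh5, Col1a1 or Upk3b markers was left out, the E16.5 ratios of Mdk were 5.71 and 5.1, and that in the only E12.5 library that remained, with 21 atrial barcodes, was 0.822. The mean difference (log2 fold 0.99, adjusted p = 0.011, edgeR) drew less on E12.5 than in the full set. The gated sides carried their own markers at E16.5, with 14116 and 12978 CPM of atrial markers on the atrial side and 13772 and 13680 CPM of ventricular markers on the ventricular side. Each sum is of a side's own list at E16.5, so how far the lists separate the sides is not shown here.

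**Figure D3:**
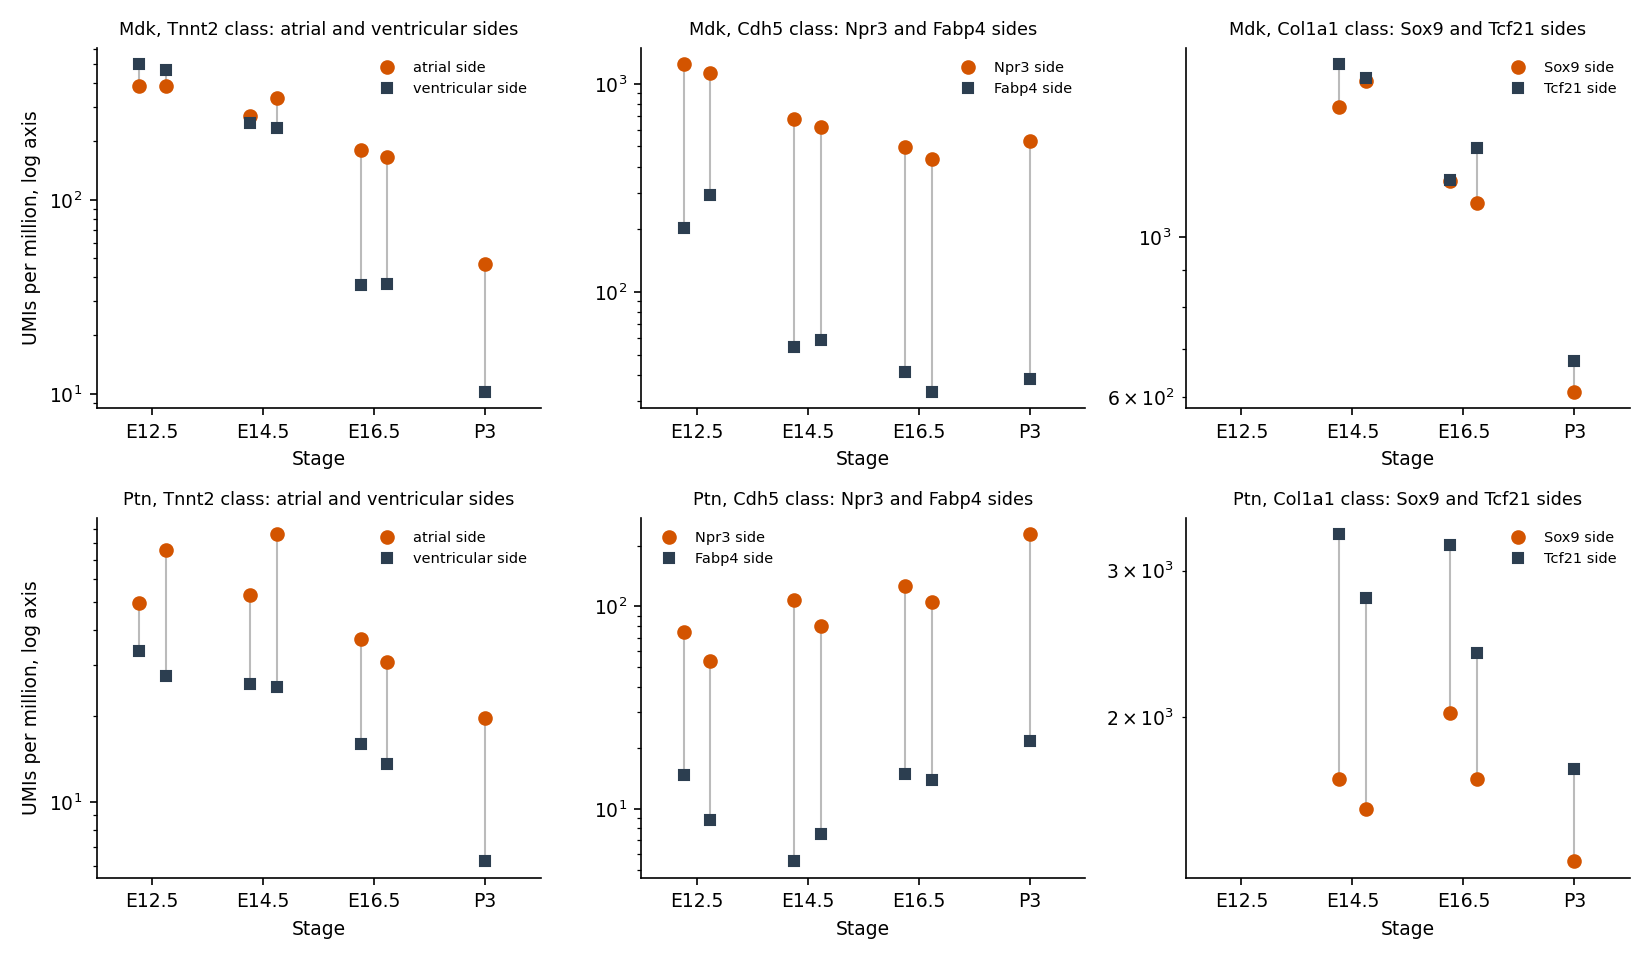
CPM of Mdk and Ptn on a log axis by library for both sides of the chamber, endothelial and mesenchyme contrasts, with each line joining the sides of 1 library. The ventricular side of Mdk lies at 36.3 and 36.8 CPM at E16.5 against 179.8 and 166.9 CPM on the atrial side, and the Fabp4 side of Mdk lies below the Npr3 side in every library.

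Of the 7 contrasts, the one in endothelial barcodes gave the largest differences. Npr3 marks endocardium and Fabp4 the vascular endothelium, and each side held its own markers above the other's (799.1 to 1086 against 58.1 to 277.3 CPM of endocardial markers on the Npr3 side and the Fabp4 side). Mdk on the Npr3 side was at 1244 and 1128 CPM in the E12.5 hearts, 676.8 and 618.2 in the E14.5 hearts and 499.6 and 435.3 in the E16.5 hearts. On the Fabp4 side it was at 202.6 and 292, 54.3 and 58.9, and 41.3 and 33.2 CPM. The Npr3 side was 8.12-fold higher (log2 3.02, SE 0.20, adjusted p = 7.9e-08, edgeR), in a contrast where 50.9% of genes passed.

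Ptn had much lower levels and was also higher on the Npr3 side. The Npr3 side held 74.9 and 54.1 CPM in the E12.5 hearts, 107.6 and 79.7 in the E14.5 hearts and 126.2 and 105.5 in the E16.5 hearts, and the Fabp4 side 14.7 and 8.85, 5.49 and 7.54, and 14.9 and 13.8 CPM. The Npr3 side was 8.56-fold higher in the fit (log2 3.10, SE 0.18, adjusted p = 2.9e-08, edgeR). At E14.5 the Fabp4 side was no higher than the range of macrophage barcodes (3.31 and 8.32 CPM), so its level there is not read as expression and the size of the fold is uncertain. At E16.5 macrophage barcodes were at 3.45 and 2.75 CPM, below the Fabp4 side. The side difference of Mdk was 1.36 larger at E16.5 than at E12.5 on the log2 scale (SE 0.17) and that of Ptn 0.58 larger (SE 0.40), given as a description because the course of the class over these stages was used to choose the genes. Of all genes 8.18% passed for such a change. At P3 the sides were at 532.5 and 38.3 CPM of Mdk and 228 and 21.7 CPM of Ptn.

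At E12.5 only 24 and 23 barcodes formed the Fabp4 side. The Npr3 side also carried more of the Col1a1 class's markers, 200.7 to 378.2 CPM against 15.4 to 88.2 CPM on the Fabp4 side in these 6 libraries. With all barcodes that held a UMI of the Col1a1 or Upk3b markers left out, the Npr3 to Fabp4 ratios of Mdk in the 4 libraries of E14.5 and E16.5 were 7.47 to 19.3. Ptn on the Npr3 side was lower in all 4 without these barcodes, at 88.4 and 60.8 CPM in the E14.5 hearts and 36.6 and 64.2 in the E16.5 hearts. The Fabp4 side then held 2.8, 3.97, 10.3 and 2.23 CPM of Ptn. That was below the macrophage level, which rested on 2, 3, 2 and 1 UMIs, in every library but E16.5 replicate 1. In that library the Npr3 to Fabp4 ratio of Ptn was 3.54, and 8.48 with all barcodes. In the others it was larger without the marker-bearing barcodes, at 31.6, 15.3 and 28.8 against 19.6, 10.6 and 7.63. Those ratios rest on a Fabp4 side below the macrophage level, so their size is not read. With the same limit, the fitted log2 fold of Ptn without marker-bearing barcodes was 3.65 (adjusted p = 1.3e-05, edgeR). All values without these barcodes came from 26 to 37 Npr3 and 42 to 51 Fabp4 barcodes a library.

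In Col1a1 barcodes the Sox9 side was set against the Tcf21 side in the 4 hearts of E14.5 and E16.5. Sox9 is a transcription factor of cushion and valve mesenchyme and Tcf21 one of epicardium and fibroblasts. The gates separated the cushion markers (704.5 to 1543 CPM on the Sox9 side and 362.3 to 531.7 CPM on the Tcf21 side), but the fibroblast markers Dcn, Lum, Meox1 and Pdgfra summed higher on the Sox9 side (2060 to 3724 CPM) than on the Tcf21 side (1283 to 2954 CPM), so the sides are called by their gate genes alone.

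Ptn was at 1688 and 1552 CPM on the Sox9 side in the E14.5 hearts and 2022 and 1685 in the E16.5 hearts, against 3319 and 2780, and 3224 and 2391 CPM on the Tcf21 side. It was 1.91-fold lower on the Sox9 side (log2 -0.94, SE 0.09, adjusted p = 1.4e-07, edgeR), in all 4 libraries, where 13.7% of genes passed. With plain library sizes the log2 fold of Ptn was smaller, at -0.74 (adjusted p = 4.7e-07, edgeR). Mdk was at 1515, 1644, 1196 and 1114 CPM on the Sox9 side and 1735, 1661, 1198 and 1327 CPM on the Tcf21 side. The fitted log2 fold of Mdk was -0.30 (SE 0.08, adjusted p = 0.013, edgeR), but with plain library sizes in place of TMM scaling it was -0.11 (adjusted p = 0.29). It also missed the threshold without E14.5 replicate 1 (-0.26, adjusted p = 0.078) and without E16.5 replicate 2 (-0.26, adjusted p = 0.12). At P3 the sides held 610.5 and 673.1 CPM of Mdk and 1343 and 1732 CPM of Ptn.

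Cycling barcodes, with at least 2 UMIs of Mki67, Top2a and Cdk1 together, were compared with barcodes that had none. In the Tnnt2 class Mdk was at 521.7 and 498.9 CPM in cycling barcodes of E12.5, 266.6 and 251.3 of E14.5 and 51.8 and 51.9 of E16.5, and at 442.2 and 421.2, 233.2 and 216.4, and 44 and 44.7 CPM in the others. The difference was small but held in 6 of 6 libraries (1.11-fold, log2 0.16, SE 0.02, adjusted p = 0.00014, edgeR), in a contrast where 58.7% of genes passed. Its change between E12.5 and E16.5 was -0.03 on the log2 scale (SE 0.05), a description with no test, since the course of the class chose the genes. That value went from -0.21 with no mitochondrial floor to 0.12 with barcodes of several gates kept. Of all genes 12.6% passed for such a change. Cycling barcodes were deeper, with medians of 17278 to 28503 UMIs against 10580 to 20837, and with the study's ceilings on mitochondrial UMIs the log2 fold was 0.07 (adjusted p = 0.051).

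Ptn in Tnnt2 barcodes did not pass in the mean (log2 0.22, SE 0.11, adjusted p = 0.12, edgeR). Cycling and other barcodes held 30.3 and 39 CPM in E12.5 replicate 1, 32.1 and 27 in E12.5 replicate 2, 29 and 25.4, and 32.5 and 21.4, in the E14.5 hearts, 21 and 16.1 in E16.5 replicate 1 and 21.4 and 12 in E16.5 replicate 2. Outside the fit the E10.5 embryos lay the other way, with 45.1 against 99.5 and 27.9 against 106.5 CPM from 49 to 65 barcodes a side, E8.5 had 36.7 against 37.2 CPM, and P3 had 19.1 against 7.49 CPM, the latter below the macrophage value. The mean difference passed without E12.5 replicate 1 (0.36, adjusted p = 0.0037). Its change from E12.5 to E16.5 was 0.59 (SE 0.15), a description with no test, since the course of the class chose the genes. This change was 0.60 with DESeq2 and 1.03 with gate minimums doubled. It was 0.30 without E12.5 replicate 1, 0.47 without E14.5 replicate 1 and 0.41 without E16.5 replicate 2.

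In Col1a1 barcodes both genes were lower in cycling barcodes. Ptn was at 1143 and 930.8 CPM in cycling barcodes of E12.5, 1785 and 1607 of E14.5 and 2071 and 1665 of E16.5, and at 1455 and 1403, 2536 and 2252, and 2595 and 2380 CPM in the others. Cycling barcodes were 1.36-fold lower (log2 -0.44, SE 0.05, adjusted p = 6.9e-07, edgeR), in 6 of 6 libraries, where 29.3% of genes passed. Mdk was 1.09-fold lower (log2 -0.12, SE 0.04, adjusted p = 0.037), and this missed the threshold with DESeq2 (-0.13, adjusted p = 0.14) and on leaving out E12.5 replicate 2, E14.5 replicate 1 or either E16.5 library (adjusted p = 0.071 to 0.075). From E12.5 to E16.5 the side difference changed by -0.02 for both genes (SE 0.07 for Mdk and 0.09 for Ptn), a description with no test. Of all genes 0.857% passed for such a change.

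In the embryos 1 contrast was made within the Sox2 class. Barcodes with UMIs of any of 9 Hox genes, the hindbrain and spinal cord side, were set against those with Otx2, a gene known from forebrain and midbrain (456, 1618 and 1589 against 333, 711 and 754 barcodes). Heads were to have been removed from these embryos, so such cells should be few, and the Otx2 side is called by its gate gene alone. Mdk was at 2229, 2198 and 2234 CPM on the Hox side and 1990, 2146 and 2157 CPM on the Otx2 side of E8.5 and the E10.5 libraries, a log2 difference of 0.11 (SE 0.02, adjusted p = 0.014, edgeR) in 3 of 3 libraries, where 15.2% of genes passed. With plain library sizes it was 0.08 (adjusted p = 0.054). Ptn was at 459.7, 445.1 and 437.8 against 460.3, 398.7 and 433.4 CPM (log2 0.09, SE 0.03, adjusted p = 0.13), and in a fit on both E10.5 libraries alone it was 0.12 and passed.

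Ptn was also compared between neurons and progenitors. The neurons lie outside the Sox2 class, whose level was among those that chose the genes, so these values are a description with no test. Barcodes with Elavl3, an RNA-binding protein of neurons, and no Sox2 had 242.3 CPM of Ptn at E8.5 (21 barcodes) and 104 and 164.1 CPM at E10.5, and Sox2 barcodes without Elavl3 had 515.4, 459.2 and 466.2 CPM. The neuron side was 3.16-fold lower (log2 -1.66, SE 0.14) in 3 of 3 libraries, in a contrast where 45.5% of all genes passed. Mdk was at 2078, 1466 and 1631 CPM on the neuron side and 2007, 2197 and 2228 CPM in progenitors. The neuron side was thus lower in both E10.5 libraries and not at E8.5. The fitted log2 difference was -0.38 (SE 0.09). Neuronal markers summed to 2318 to 3110 CPM on the Elavl3 side and to 65.6 to 101.3 CPM in Sox2 barcodes.

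**Figure D4:**
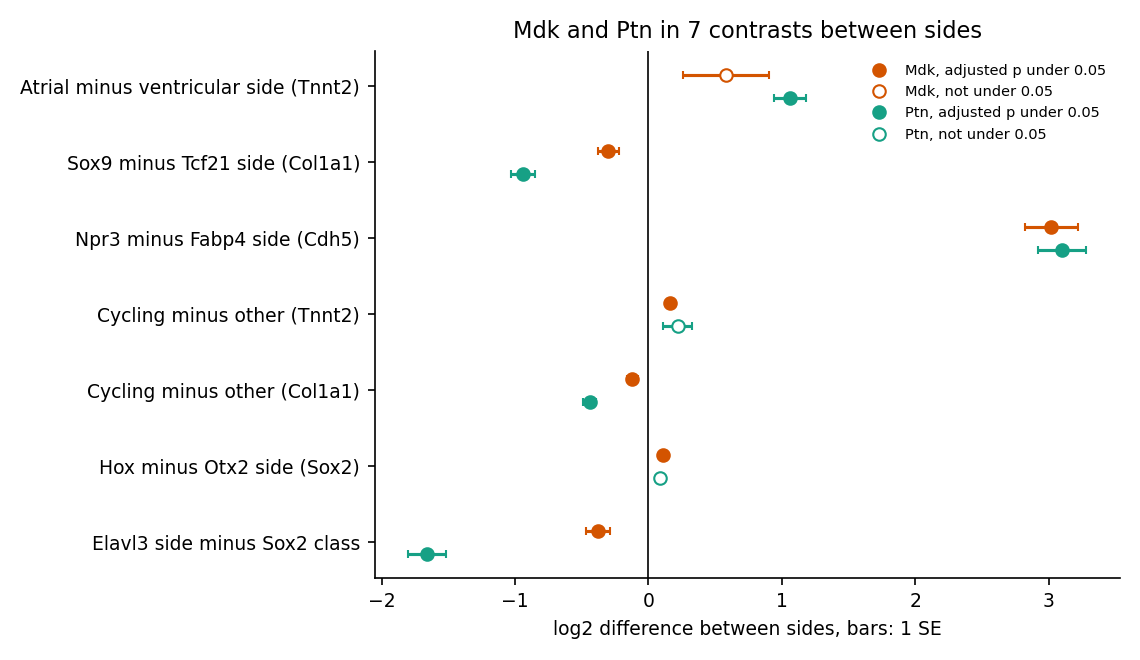
Log2 fold of Mdk and Ptn in 6 contrasts within a class and that of the Elavl3 side with the Sox2 class, as points with bars of 1 SE from the edgeR fits. The Npr3 against Fabp4 difference is the largest for both genes (3.02 and 3.10), and filled points mark an adjusted p under 0.05, which is not read for the Elavl3 side.

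The receptors and carriers of the 2 factors were compared between E16.5 and E12.5 within each class. These tests share the libraries of the levels above but concern other genes. Scaling mattered for them, since plain library sizes moved the median log2 change of all genes by -0.23 in Tnnt2, 0.08 in Cdh5 and -0.21 in Col1a1 barcodes, and all changes below are relative to the TMM scale, on which that median was 0.01 in each class. Of 19 receptor genes 17, 15 and 17 were tested in these classes. Alk, the kinase receptor, and the glypican Gpc2 were too low to be tested in any of them, with Alk at 0 to 0.424 CPM, and Cspg4 was not tested in Cdh5 barcodes. The shifts in make-up given above, from Npr3 to Fabp4 barcodes in the Cdh5 class and from the Sox9 to the Tcf21 side in the Col1a1 class, fell between the same stages, and their part in the changes of all 3 lists was not tested.

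In Tnnt2 barcodes 10 receptor genes fell and 2 rose (median log2 change of the list -0.59), beside 30.2 and 30.8% of all genes that fell and rose. The laminin receptor subunit Itga6 was at 77.6 and 83.1 CPM at E12.5 and 13.7 and 14.9 at E16.5 (log2 -2.26, adjusted p = 3.6e-12, edgeR). The endocytic receptor Lrp1 went from 13.3 and 15.8 to 4.4 and 5.01 CPM (-1.41, adjusted p = 1.2e-08), and Itgav from 23.4 and 27.9 to 8.29 and 9.38 CPM (-1.32, adjusted p = 6.2e-09). Sdc3, Sdc4, Itgb3, Itga4, Cspg5, Ptprs and Ptprz1 fell too, the last from 0.318 and 0.29 CPM. The semaphorin and VEGF coreceptor Nrp1 rose from 134 and 137 to 164 and 167 CPM (0.52, adjusted p = 7.6e-06), as did Notch2 (0.41, adjusted p = 0.007). With plain library sizes 15 fell and 1 rose. Sdc1, Sdc2, Ncl, Itgb1 and Cspg4 did not pass, with log2 changes of -0.20 to 0.03.

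Col1a1 barcodes, where Ptn was highest, showed the reverse balance. There 11 receptor genes rose and 1 fell (median 0.59), beside 19.3 and 16.9% of all genes that rose and fell. Lrp1 went from 59.8 and 57.7 to 86.4 and 95.2 CPM (log2 0.84, adjusted p = 4.8e-07, edgeR), Sdc2 from 59.8 and 52 to 70.2 and 73 CPM (0.59, adjusted p = 0.00013) and Nrp1 from 79.3 and 82.6 to 110 and 110 CPM (0.65, adjusted p = 2.4e-05). The receptor phosphatase Ptprz1 was low, at 2.12 and 2.47 CPM at E12.5 and 4.42 and 3.56 at E16.5 (0.99, adjusted p = 0.043). Itgb3 (1.51), Cspg5 (1.76), Itga6 (0.95), Itgav (0.68), Cspg4 (0.75), Sdc3 (0.44) and Sdc4 (0.49) rose as well. The gene that fell was Itga4, an integrin subunit of the epicardium and of migrating cells, from 69.5 and 54.6 to 5.77 and 4.09 CPM (-3.36, adjusted p = 4.2e-13).

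This balance was less stable than the one in Tnnt2 barcodes. With plain library sizes 7 receptor genes rose and 4 fell, with DESeq2 6 rose and 1 fell, with gate minimums doubled 5 rose and 2 fell, and without E12.5 replicate 1 7 rose and 2 fell. Sdc1, Ncl, Itgb1, Notch2 and Ptprs did not pass, with log2 changes of -0.36 to 0.23.

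In Cdh5 barcodes 4 receptor genes rose and 2 fell (median -0.17), beside 21.5 and 21.7% of all genes. Itgb1 went from 142 and 153 to 296 and 294 CPM (log2 0.92, adjusted p = 2.1e-07, edgeR), and Sdc3 (0.57), Nrp1 (0.44) and Itga6 (0.38) rose as well. Lrp1 fell from 7.34 and 7.33 to 3.81 and 2.92 CPM (-1.17, adjusted p = 0.001) and Notch2 by 0.72 (adjusted p = 0.028). Only 1 gene fell without E12.5 replicate 2, without E16.5 replicate 1, with DESeq2 or with plain library sizes. Ptprz1 was at 0 to 0.12 CPM in these libraries and was not tested. The remaining 9 receptor genes tested did not pass (Sdc1, Sdc2, Sdc4, Ncl, Itga4, Itgav, Itgb3, Ptprs and Cspg5, log2 changes from -1.19 to 0.44).

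The carrier list held 20 proteoglycan cores and enzymes that make or sulfate their sugar chains. In Tnnt2 barcodes 13 of 18 tested fell and 2 rose (median -0.48), beside 30.2 and 30.8% of all genes. The chondroitin sulfotransferase Chst12 went from 7.65 and 7.97 to 1.09 and 1.15 CPM (log2 -2.57, adjusted p = 2.4e-10, edgeR) and the heparan sulfotransferase Hs6st2 from 16.3 and 18.3 to 3.25 and 2.97 CPM (-2.24, adjusted p = 1.4e-10). The matrix proteoglycan Vcan fell from 174 and 197 to 57.8 and 59.8 CPM (-1.43), and Acan, near 0 throughout, by 3.65. With plain library sizes 15 fell and 1 rose.

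In Col1a1 barcodes 7 of 18 carrier genes fell and 4 rose (median -0.10), beside 16.9 and 19.3% of all genes, so the share that rose was near that of all genes. Gpc1 (log2 -2.08), Vcan (-1.78), Chst11 (-1.45) and Gpc3 (-1.32) changed most, and Vcan went from 709 and 579 to 151 and 172 CPM (adjusted p = 3.3e-13, edgeR). In Cdh5 barcodes 7 of 17 rose and 3 fell (median 0.10), beside 21.5 and 21.7% of all genes, with Gpc4 (2.20), Gpc3 (-2.01), Chst12 (1.01) and Vcan (-0.91) the largest. With DESeq2 4 rose and 3 fell in the Cdh5 class.

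The retinoic acid list held 15 genes of synthesis, breakdown, transport and reception. In Col1a1 barcodes 7 of 13 rose and 3 fell (median 0.29), beside 19.3 and 16.9% of all genes, so the share that fell was near that of all genes. The synthesis enzyme Aldh1a2 went from 2.12 and 2.05 to 37.6 and 41.3 CPM (log2 4.43, adjusted p = 5.1e-13, edgeR) and Aldh1a1 from 1.27 and 0.205 to 8.85 and 8.01 CPM (4.08, adjusted p = 3.2e-07). The binding protein Crabp1 fell from 111 and 103 to 3.69 and 3.2 CPM (-4.71, adjusted p = 1.9e-15) and Crabp2 by 2.14. With E12.5 replicate 2 or E16.5 replicate 1 left out, with gate minimums doubled or with DESeq2, 4 of the list rose, and 2 with barcodes of several gates kept.

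In Tnnt2 barcodes 4 of 11 retinoic genes fell and 1 rose (median -0.18), beside 30.2 and 30.8% of all genes, so the share that fell was near that of all genes. Among those that fell were Crabp1 (log2 -4.28, from 9.79 and 8.67 to 0.437 and 0.35 CPM), Crabp2 (-2.97) and Aldh1a3 (-1.38). Even at E12.5, Crabp2 was only at 0.772 and 0.688 CPM and Aldh1a3 at 1.14 and 1.07 CPM. The part of free RNA in these falls was not tested. Rxra, a nuclear receptor named here after its value was seen, rose by 0.42, which was not called with plain library sizes. In Cdh5 barcodes 3 of 9 rose and 3 fell (median 0.12), beside 21.5 and 21.7% of all genes, with Dhrs3 at 2.31, Crabp2 at -1.70, Rarg at 1.61 and Cyp26b1 at -1.52.

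**Figure D5:**
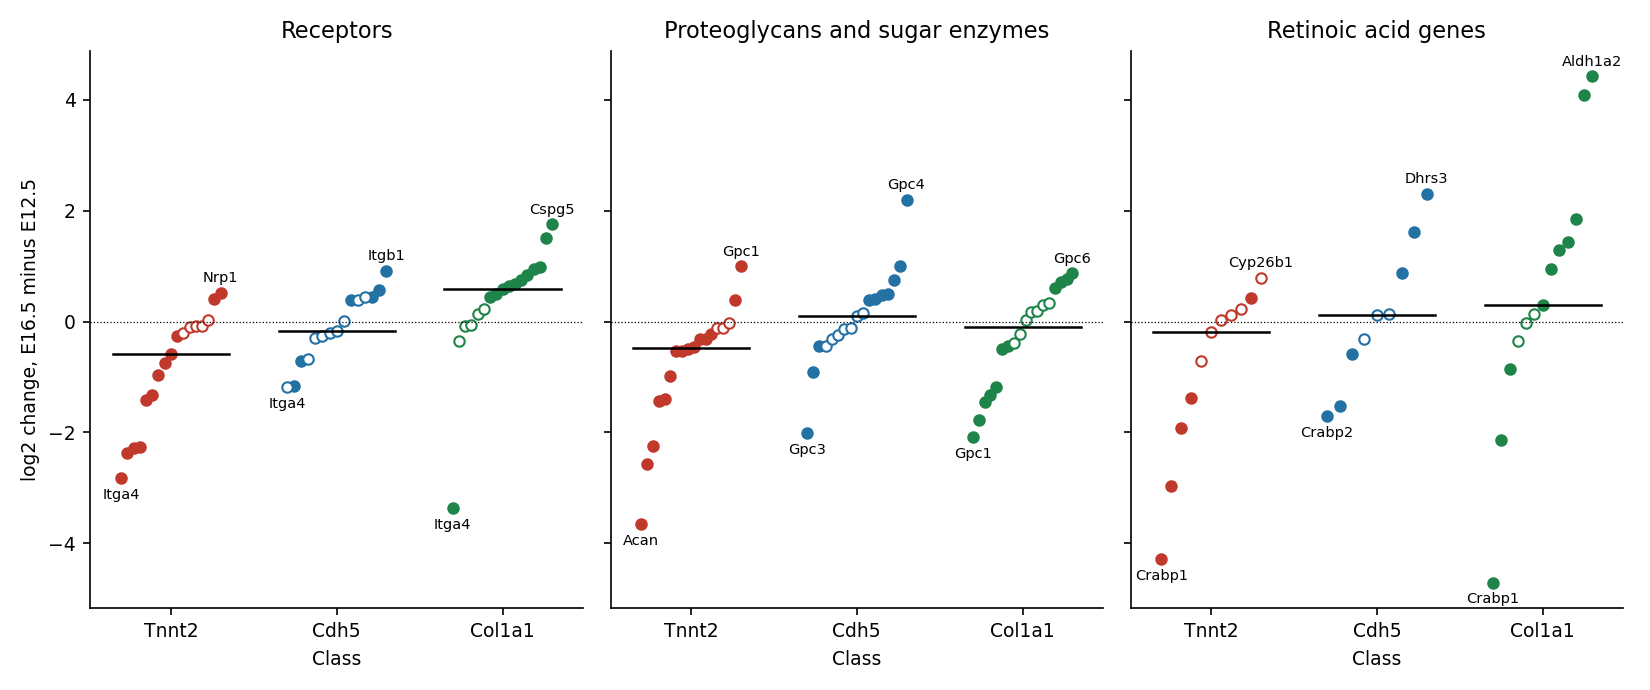
Log2 change from E12.5 to E16.5 of each tested gene of the receptor, carrier and retinoic acid lists in Tnnt2, Cdh5 and Col1a1 barcodes, with filled points for genes past the threshold and a bar at the median of the list. The receptor medians are -0.59, -0.17 and 0.59 in the 3 classes.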

How the data were processed

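Mouse tissue was dissociated with trypsin per the labels (with collagenase II per the study's methods), and libraries were made with 10x Genomics 3′ chemistry, which the labels give as v2 and the methods as v3. The authors made the deposited matrices of UMI counts with Cell Ranger (2.1.1 per the labels, 3.1.0 and, for P3, 3.0.0 per the file headers) on mm10. Embryonic matrices hold every barcode, and the P3 matrix was deposited already filtered (10964 barcodes), so no free RNA profile could be made for it. Replicate 1 of E16.5 and P3 are each 1 matrix for 2 sample records.

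From the counts, barcodes with at least 2000 UMIs and 1% mitochondrial UMIs were gated by Tnnt2 (at least 10 UMIs per 10000), Col1a1 (5 per 10000), Cdh5, Upk3b and Sox2 (2 UMIs each), and barcodes passing 1 gate were summed per class and library (at least 20 barcodes). Exact binomial intervals are at 95%. No doublet caller was run. Doublets were treated by the single gate and by leaving out the top 5% of UMIs. Pairs of libraries shared 14 to 181 barcodes, with 21.9 to 193.1 expected from their sizes. Sums were tested with edgeR 4.0.16 (quasi-likelihood, TMM, filterByExpr, Benjamini-Hochberg over all genes tested, threshold 0.05), with library as a block where both sides came from 1 library, and with DESeq2 1.42.0 as an alternative, in R 4.3.3. The method was checked on simulated counts. Named genes were the 2 members, all receptors, up to 4 carrier and retinoic genes with the largest change past the threshold, and 5 genes most like each member. The value of 1 gene that this rule names is not reported here. The members and lists were chosen with earlier results of these data known. Sequences came from GENCODE vM21.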

Additional observations from a re-analysis of the deposited data

Results flagged for a closer look

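3 differences between sides differed between E12.5 and E16.5 by an interaction term. The term draws on the course of the class over these stages, which was used to choose the genes, so no p is given for any of them. For Mdk the atrial minus ventricular difference changed by 2.50 on the log2 scale, from a ratio of 0.767 and 0.831 to one of 4.96 and 4.54, and the change lay between 2.15 and 2.58 in all alternatives run. The Npr3 minus Fabp4 difference of Mdk changed by 1.36, from ratios of 6.14 and 3.86 to 12.1 and 13.1, with 24 and 23 Fabp4 barcodes at E12.5. The cycling minus other difference of Ptn in Tnnt2 barcodes changed by 0.59, from ratios of 0.779 and 1.19 to 1.31 and 1.79. Its flag depended on single libraries and on the tool. No group had 4 libraries, so no single library was screened as standing apart.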

How the results depend on the processing

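Of 212 alternative values for 14 contrasts and 118 for 8 changes of contrasts between stages, 180 and 88 kept their direction and side of the threshold. For the stage changes and the neuron contrast, which are descriptions, the threshold only serves to count how steady a value was. Of 270 counts of list genes 241 stayed within 1.5 times the count reported, and of 66 level differences 52 moved by less than 1 SD. The rest follow, and unless the alternative's own construction shows it (fewer barcodes or libraries), the cause was not tested. For contrasts between sides, p-values measure how the side difference varied over the libraries fitted, so a change of that difference with stage adds to the error. For the lists they measure the spread between libraries of a stage. E8.5 and P3 had 1 matrix each. Side by stage changes need Fabp4 and atrial barcodes that were few at E12.5. There is no list test for Upk3b barcodes and no endothelial change with the top 5% of UMIs, doubled side gates or marker-bearing barcodes left out, as too few E12.5 Fabp4 barcodes remained. The 3 added alternatives (plain library size, marker-bearing barcodes left out, and Col1a1 allowed in Upk3b barcodes) were chosen after seeing the data.

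The mean Mdk chamber difference passed with marker-bearing barcodes left out (0.99), and was 0.06 with no replicate block and 0.27 to 0.81 on leave-one-out, none of which passed. The Mdk Sox9 minus Tcf21 difference missed the threshold with gate minimums doubled (-0.27), side gates doubled (-0.31), no replicate block (-0.30) and plain library size (-0.11), and in 2 of the 4 fits that left out 1 library (range of the 4: -0.36 to -0.26). Mdk in cycling Tnnt2 barcodes missed it with the study's mitochondrial ceilings (0.07) and no replicate block (0.17), and Mdk in cycling Col1a1 barcodes with gate minimums doubled or DESeq2 (-0.13), no filter on low counts or no replicate block (-0.12) and in 4 of 6 leave-one-out fits (range of the 6: -0.14 to -0.11). Ptn in cycling Col1a1 barcodes missed it without the replicate block (-0.44). Ptn in cycling Tnnt2 barcodes passed with no mitochondrial floor (0.26), no filter (0.21), plain library size (0.29) and in 1 of 6 leave-one-out fits, the one without E12.5 replicate 1 (range of the 6: 0.13 to 0.36). The Mdk Hox minus Otx2 difference missed it with no replicate block (0.12) and plain library size (0.08). That of Ptn passed with gate minimums doubled (0.17), no mitochondrial floor (0.16), no filter (0.10) and in 1 of 3 leave-one-out fits, the one on both E10.5 libraries alone (range of the 3: 0.04 to 0.12), and turned with side gates doubled (-0.01). The Mdk neuron difference, a description with no test, was -0.36 with no replicate block and -0.52 to -0.28 in the 3 leave-one-out fits. The block is the library itself, which both sides share, and for the lists a block on the replicate number changed no count by over 1.5 times.

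Among stage changes, that of the Ptn chamber difference turned with gate minimums doubled (-0.19) and without E12.5 replicate 1 alone of 6 leave-one-out fits (range -0.33 to 0.57), and the Ptn endothelial one with barcodes of several gates kept (-0.39). The Mdk change in cycling Tnnt2 barcodes turned with gate minimums doubled (0.05), several gates kept (0.12) and side gates doubled (0.01). It was -0.21 with no mitochondrial floor, -0.18 with no filter and -0.15 to -0.03 in the 6 leave-one-out fits. That of Ptn was 0.60 with DESeq2 and 0.30 to 0.90 in the 6 leave-one-out fits. In cycling Col1a1 barcodes the Mdk change turned with several gates kept (0.05), the top 5% of UMIs left out (0.00), side gates doubled (0.04), DESeq2 (0.01), plain library size (0.06) and 3 of 6 leave-one-out fits (range -0.04 to 0.05). The Ptn change there turned with several gates kept (0.02), the top 5% left out (0.04), DESeq2 (0.01), plain library size (0.06) and 4 of 6 leave-one-out fits (range -0.12 to 0.14).

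For receptor genes, those that rose in Tnnt2 barcodes numbered 1 with plain library size and 1 to 2 on leave-one-out. Those that fell in Cdh5 barcodes numbered 1 with several gates kept, the top 5% left out, DESeq2 or plain library size and 1 to 3 on leave-one-out. In Col1a1 barcodes 5, 6 and 7 rose with gate minimums doubled, DESeq2 and plain library size and 7 to 10 on leave-one-out, and 2, 2 and 4 fell with gate minimums doubled, no filter and plain library size and 1 to 2 on leave-one-out. Of carriers, 1 rose in Tnnt2 barcodes with plain library size, 4 in Cdh5 with gate minimums doubled or DESeq2, and 2 in Col1a1 with gate minimums doubled. Of retinoic genes, 2 rose in Tnnt2 barcodes with gate minimums doubled, 0 with plain library size and 1 to 2 on leave-one-out. In Col1a1 4, 2 and 4 rose with gate minimums doubled, several gates kept and DESeq2, and 4 to 7 on leave-one-out.

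The log2 level difference of E16.5 from E12.5 kept its sign throughout. For Mdk in Tnnt2 barcodes it was -3.30 with gate minimums doubled, -3.23 with several gates kept, -3.25 with no mitochondrial floor, -3.47 as a mean over barcodes and -3.51 with free RNA subtracted. For Ptn there it was -0.59, -0.55 and -1.44 with gate minimums doubled, several gates kept and free RNA subtracted. For Mdk in Cdh5 barcodes it was -2.45, -2.05 and -2.12 with gate minimums doubled, the top 5% left out and as a mean over barcodes. In Col1a1 barcodes Mdk was at -0.51 with gate minimums doubled and -0.83 with several gates kept, and Ptn at 0.54 with several gates kept.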
